A study of Caenorhabditis elegans with 2 samples.

Results

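The regions described are the 1021 promoter peaks on the autosomes that lay just below the cutoff of a ChIP-seq experiment on CEH-90 in C. elegans. They were selected on the authors' signal per peak: in the list called on both replicates together, they are the peaks that follow the cutoff by signal, down to rank 3000, on chromosomes I to V. Their summits lie at most 1000 bp upstream or 200 bp downstream of the start of a protein-coding transcript. They make up 1021 of the 30000 peaks of that list. Between the cutoff and rank 3000 lay 2235 peaks, of which 301 were on X and 913 on autosomes outside the windows. The study held 1 group of 2 replicates, which the labels number as biological without describing the cultures. Each was made from whole hermaphrodite L1 larvae of strain OP210, genotype unc-119(ed3) III; wgIs210, at 6 hours after synchronization. All worms carried CEH-90 joined at its C terminus to GFP and FLAG, as an inserted transgene, and an antibody against GFP recovered the chromatin. No immunoprecipitation from worms without the fusion was analysed here, read depth was unknown, and whole larvae mix all tissues.

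In ChIP-seq, proteins are fixed to chromatin, the chromatin is sheared, the tagged protein is recovered and the DNA that comes with it is sequenced. A peak marks sequence recovered more often than its surroundings, and its summit is the position of highest signal. An IDR cutoff, for irreproducible discovery rate, keeps peaks that replicates rank alike. CEH-90 is the product of a homeobox gene. Homeodomain proteins are transcription factors, and many of them bind short sites with a TAAT core. In this worm many transcripts receive a spliced leader, and the annotated start is then not where transcription begins.

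Sequence at the summits was compared with that of the 580 promoter peaks above the cutoff, chosen by the same windows and called the stronger peaks here. The 10 6-mers most enriched at summits of the stronger peaks fell into a GGCC type of 7, of which CTAGGC alone lacks those 4 letters but overlaps them in a joined word, and a CGCG type of 3. The 6 members below show both types. They are the strongest members on the printed chromosomes that hold at least 2 matches to these 6-mers outside annotated exons. Each line gives the summit with 50 bp on either side, on the plus strand of the ce11 genome (RefSeq, WBcel235), and capitals mark the matched 6-mers on either strand, which run together where they overlap.
cls-3, chrIII:9191167-9191267: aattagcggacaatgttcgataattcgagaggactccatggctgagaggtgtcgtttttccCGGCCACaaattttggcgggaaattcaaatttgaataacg
F38A5.2, chrIV:6585508-6585608: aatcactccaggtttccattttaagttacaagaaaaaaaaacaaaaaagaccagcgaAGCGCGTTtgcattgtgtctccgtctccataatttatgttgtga
prx-19, chrIII:8809683-8809783: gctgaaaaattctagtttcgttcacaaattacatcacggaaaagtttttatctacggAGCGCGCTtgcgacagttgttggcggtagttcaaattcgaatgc
ufd-2, chrII:8062394-8062494: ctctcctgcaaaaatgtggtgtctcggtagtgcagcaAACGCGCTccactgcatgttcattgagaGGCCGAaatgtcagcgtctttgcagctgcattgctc
Y62E10A.13, chrIV:13393122-13393222: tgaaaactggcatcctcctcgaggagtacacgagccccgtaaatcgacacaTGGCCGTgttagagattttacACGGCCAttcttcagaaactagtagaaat
gldi-9, chrIII:2756737-2756837: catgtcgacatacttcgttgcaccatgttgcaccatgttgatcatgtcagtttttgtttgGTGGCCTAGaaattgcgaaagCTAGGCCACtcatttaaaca
The first line, at cls-3, which encodes a protein of the CLASP family that binds microtubules, and the line of Y62E10A.13 show the GGCC type. At gldi-9 the same 9 letters stand in both orientations, GTGGCCTAG and its reverse complement. F38A5.2 and prx-19, a peroxisome biogenesis gene, show the CGCG type. Both types occur at ufd-2, which encodes a ubiquitin chain elongation factor.

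The replicate values behind these sequences differed in balance. At cls-3 the signal was 41.39 in replicate 1 (rank 469) and 28.76 in replicate 2 (rank 2422). At ufd-2 it was 37.26 (rank 564) and 20.62 (rank 8253), and at F38A5.2 it was 32.16 (rank 734) and 20.52 (rank 8399). These members ranked higher in replicate 1. At prx-19 the order was reversed, with 18.07 in replicate 1 (rank 4496) and 40.9 in replicate 2 (rank 792). The peak at gldi-9 had 24.68 (rank 1505) and 36.87 (rank 1037), and that at Y62E10A.13 had 30.58 (rank 825) and 36.75 (rank 1046), so their ranks lay close together.

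The 7 GGCC 6-mers that led the stronger peaks were no more frequent at member summits than beside them. For each possible 6-mer, read on both strands, the peaks that held it within 50 bp of the summit were counted against those that held it in flanks 200 to 250 bp away. The exact sign test was used, with Benjamini-Hochberg adjustment over all 6-mers. At 38 members a summit above the cutoff lay within the flanks, 200 to 215 bp away. GGCCTA was present at 21 member summits and 20 flanks, against 117 summits (20.2%) and 12 flanks of the stronger peaks. CTAGGC was at 17 member summits and 21 flanks, GGCCAC at 32 and 29, CGGCCA at 28 and 23, GGCCGA at 21 and 26, AGGCCA at 26 and 23, and ACGGCC at 18 and 15. None passed the test in members (exact sign test, adjusted p = 1 for each of the 7), whereas in the stronger peaks each was at 13.6 to 20.2% of summits.

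The 3 CGCG 6-mers, by contrast, were more frequent at member summits than in their flanks. ACGCGC was at 75 summits (7.35%) and 29 flanks (2.84%), with an adjusted p of 0.00488 in the exact sign test. By the same exact test AACGCG was at 76 against 32 (adjusted p = 0.00806), and AGCGCG at 53 against 18 (adjusted p = 0.00871). In the stronger peaks these 6-mers were at 15.3%, 13.3% and 15% of summits. The 10 leading 6-mers were picked for their frequency at the stronger summits, so their lower shares in members are a description without a test. The 3 calls were not all made with ranks from a single replicate: 0 of the 10 passed when ranks came from replicate 2 alone, and 1 when they came from replicate 1 alone. None of the 10 passed with members down to rank 1500 only, a smaller set of 379 peaks, and 3 passed with summits ranked above 3000 in place of flanks. Likewise 3 passed with only members over 500 bp from every summit above the cutoff, and 3 with flanks 400 to 450 bp away.

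By rank, the types left the list at different depths. The split into 7 and 3 was made after their values were seen, so their shares are described without a test. A GGCC 6-mer was at 80.2% of summits at ranks 1 to 191, 26.0% at 192 to 382, 12.9% at 383 to 573 and 8.26% from 574 to the cutoff. The share was thus already near that of the flanks (7.44%) just above the cutoff. From the cutoff to rank 3000 it stayed between 7.54% and 10.2%, and over all members it was 8.23%, against 9.01% in flanks. A CGCG 6-mer was at 29.4%, 29.3%, 31.8% and 26.4% of summits in the same 4 bins. Among members it was at 15.3% down to rank 1000, 22.2% at 1001 to 1500 and 15% at 1501 to 2000. At 2001 to 2500 it was 5.24% and at 2501 to 3000 it was 9.55%. Over all members the share was 13.8%, against 5.78% in flanks and 4.55% at summits ranked above 3000.

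**Figure D1:**
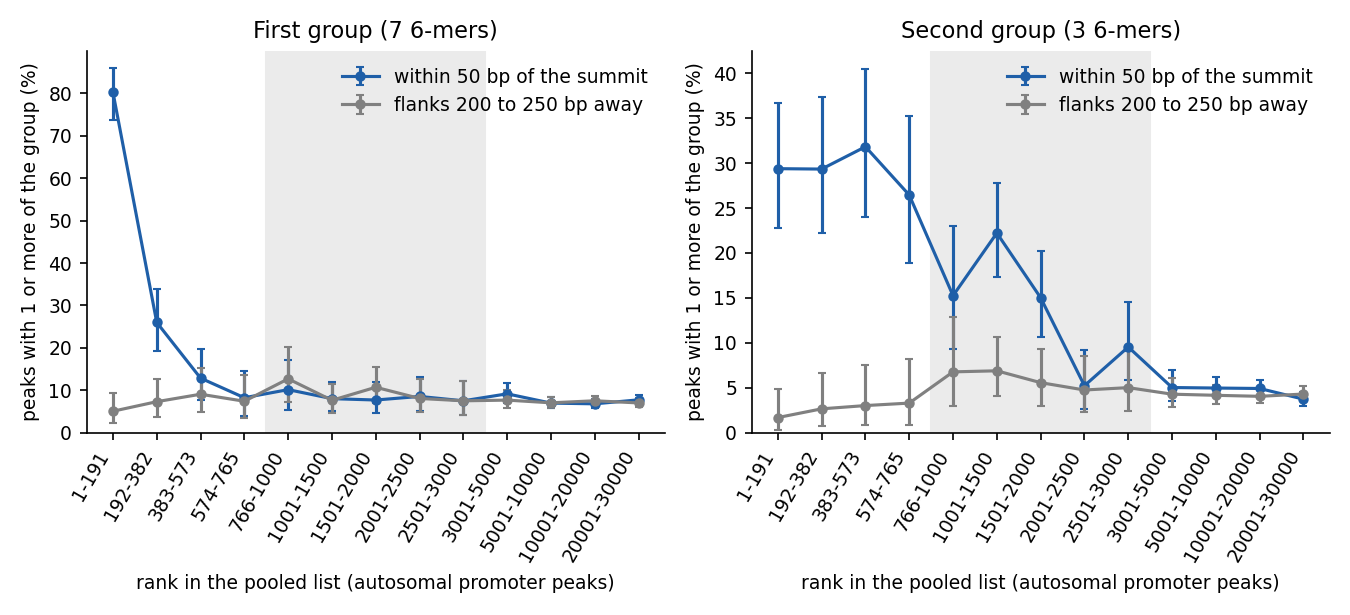
Share of autosomal promoter peaks (vertical axis, %) with at least 1 6-mer of each group, by rank in the pooled list (horizontal axis); blue points are sequence within 50 bp of the summit, grey points are the flanks, bars are exact 95% intervals over peaks, and grey shading marks the ranks from the cutoff to 3000. The first group (GGCC) drops from 80.2% to 8.26% before the cutoff, while the second (CGCG) is still at 26.4% there and at 13.8% over the shaded ranks.

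Longer words and the broad count of leading 6-mers gave the same order of the peak sets. Any of the 10 was within 50 bp of 210 member summits (20.6%, exact 95% interval 18.1 to 23.2%), 142 member flanks (13.9%) and 315 stronger summits (54.3%). In windows of the same length at the starts of all 17242 autosomal protein-coding genes, centred on the members' median position of -242 bp, the share was 11.2%. The 9-letter word CTAGGCCAC, joined from overlapping 6-mers after the values were seen and read on both strands, was at 7 member summits (0.686%). It was at 8.45% of stronger summits and in 0.232% of the windows at all gene starts. For AACGCGCT, joined in the same way, the shares were 1.18% in members, 2.24% in stronger peaks and 0.209% at all starts. These are matches of letters and were not tested as binding sites.

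Over all 6-mers, 14 (0.673%) were more frequent at member summits than in flanks and 0 (0%) less frequent by the exact sign test at an adjusted p of 0.05. At an unadjusted p of 0.05 the counts were 133 and 33. In the stronger peaks the same test gave 208 and 97, and 12 of the 14 were among the 208. GCGCGA had the lowest p, at 53 summits against 16 flanks (exact sign test, adjusted p = 0.00488). In the same exact test it was followed, beside ACGCGC and AACGCG above, by ACGACA at 62 against 22 (adjusted p = 0.00595) and GCAAAC at 88 against 41 (adjusted p = 0.00809). The count of 14 was 0 with ranks from replicate 2 alone, 20 with ranks from replicate 1 alone and 0 with members down to rank 1500 only. Furthest in the other direction, and not past the test, were AGTTCG at 12 summits against 34 flanks, GAGCTA at 11 against 33, ATTAAG at 23 against 51, CGATCA at 13 against 32 and GCTCAA at 37 against 63. Their adjusted p in the sign test lay between 0.0792 and 0.337. The flanks, read in 2 pieces, held fewer 6-mer positions than the summit window, which leans these counts towards the summit. With as many positions in both, an alternative chosen after seeing the data, 14 were more and 2 less frequent.

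Set directly against the stronger peaks, member summits held more AT-rich and fewer GC-rich words. By Fisher's exact test, 92 of all 6-mers (4.42%) were more frequent at member summits and 168 (8.08%) less frequent, at an adjusted p of 0.05. The mean GC of the letters was 21.2% in the first set and 70.6% in the second. The first was led by AAAAAT at 55.0% of member and 37.9% of stronger summits (exact test, adjusted p = 3.57e-09), TCAAAA at 29.6% and 16.7%, AAAAAA at 45.2% and 30.7%, ATGAAA at 17.4% and 8.28%, and AATCAT at 9.50% and 2.93%. The second was led by the GGCC type given above. Of the 48 6-mers with TAAT, 8 were more frequent at member than stronger summits and 0 less. Against the members' own flanks, 0 of the 48 passed in either direction in the sign test. With ranks from replicate 2 alone, the counts over all 6-mers were 48 more frequent and 110 less frequent.

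Member summits were also less GC-rich than stronger ones. Mean GC within 50 bp was 36.3% ± 9.04 (SD, n = 1021 peaks) at member summits and 34.9% ± 7.66 in their flanks, against 43.6% ± 8.81 and 35.0% ± 7.44 for the 580 stronger peaks. At 526 of 1021 members (51.5%) the summit had more GC than its flanks, and at 444 of 580 stronger peaks (76.6%). This gave an odds ratio of 0.326, with a 95% interval from 0.257 to 0.411 and p = 4.97e-23 by Fisher's exact test, adjusted over 8 comparisons. Within members, 526 summits were above and 460 below their flanks (exact sign test, p = 0.0384). That small excess was lost with ranks from replicate 2 alone (50.2% of unequal pairs above, exact sign test p = 0.95) and turned to 47.8% with flanks 400 to 450 bp away (exact sign test p = 0.17).

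**Figure D2:**
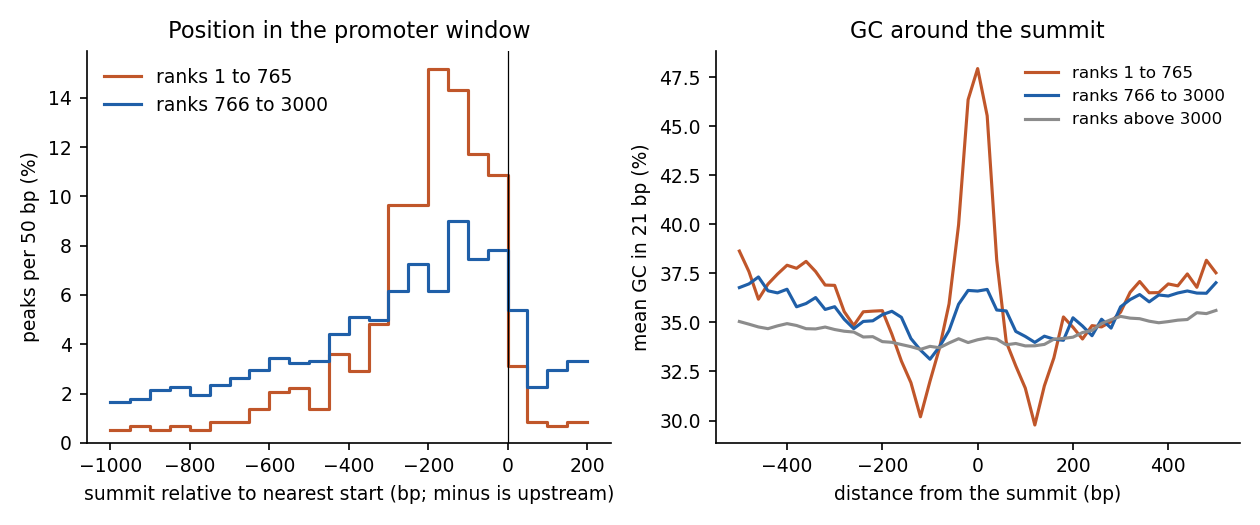
Left, share of peaks per 50 bp (vertical axis, %) by the position of the summit relative to the nearest start (horizontal axis, bp, upstream negative); right, mean GC in 21 bp (vertical axis, %) by distance from the summit (horizontal axis, bp). Members (blue, median position -242 bp) spread further from the start than stronger peaks (orange, median -172 bp) and show a low GC rise at the summit.

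Member summits lay further from gene starts. Their median position was -242 bp relative to the nearest start (quartiles -493 and -74), against -172 bp (-284 and -90.5) for the stronger peaks. In the 300 bp before the start lay 449 members (44%) and 414 stronger peaks (71.4%), an odds ratio of 0.315 (0.251 to 0.394, Fisher's exact test, adjusted p = 1.11e-25). Downstream of the start lay 141 members (13.8%) and 5.52% of stronger peaks, and in an annotated exon of any gene class 206 (20.2%) and 11.2%. Starts on both strands shared the summit at 286 members (28.0%) and 258 stronger peaks (44.5%), an odds ratio of 0.486 (0.390 to 0.605, Fisher's exact test, adjusted p = 1.01e-10). Members were therefore more often assigned to 1 gene, at 715 of 1021 (70.0%), than the stronger peaks, at 51%.

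Among autosomes, members were densest on III, with 244 or 17.7 per Mb, followed by I with 15.8, IV with 11.4, II with 9.75 and V with 9.08 per Mb. Only II differed from the stronger peaks in its share: 14.6% of members and 20.5% of stronger peaks, an odds ratio of 0.662 (0.503 to 0.872, Fisher's exact test, adjusted p = 0.00543). That call was lost with ranks from either replicate alone (odds ratio 0.762 without replicate 1 and 0.791 without replicate 2). For I, III, IV and V the odds ratios were 1.13, 1.04, 1.02 and 1.23 (adjusted p of 0.242 or more in Fisher's exact test). The windows themselves took a smaller share of peaks below the cutoff: 81.7% of autosomal peaks above the cutoff, 52.8% from there to rank 3000 (50.5 to 55.0%) and 31.8% beyond. Of the autosomal sequence, 27.1% lay in a window.

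Most members had a peak in both replicates when the full replicate lists, which include background, served as partners. Since the pooled list was made from the replicates, this support is a description without a test. A summit within 100 bp was found in replicate 1 for 820 members (80.3%), in replicate 2 for 910 (89.1%), in both for 728 (71.3%, exact 95% interval 68.4 to 74.1%) and in neither for 19 (1.86%). In 92 members it was in replicate 1 alone and in 182 in replicate 2 alone. Replicate 1 has the shorter list, with 23796 peaks against 30000. For the stronger peaks support in both was 94.7%, and for promoter peaks ranked above 3000 it was 20.4%. Of the autosomal window sequence, 2.31% lay within 100 bp of summits of both replicates.

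Support depended on the members' rank in the pooled list and on how deep in the replicate lists a partner was sought. With the full replicate lists it was 78.0% for members down to pooled rank 1000 and 80.8% at 1001 to 1500. It was 68.7% at pooled ranks 1501 to 2000, 66.7% at 2001 to 2500 and 62.8% at 2501 to 3000. Among the first 3000 ranks of each replicate, partners in both were found for 215 members (21.1%, 18.6 to 23.7%), and for 91.7% of the stronger peaks. Across the same 5 bins that share was 56.8%, 39.1%, 13.3%, 4.29% and 3.02%. A partner in the first 3000 of at least 1 replicate was found for 822 members (80.5%). Summits also lay further apart: the median distance to the partner was 27.5 bp in replicate 1 and 21 bp in replicate 2, against 7 and 9 bp for the stronger peaks. A limit of 50 bp left 43.8% matched in both.

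**Figure D3:**
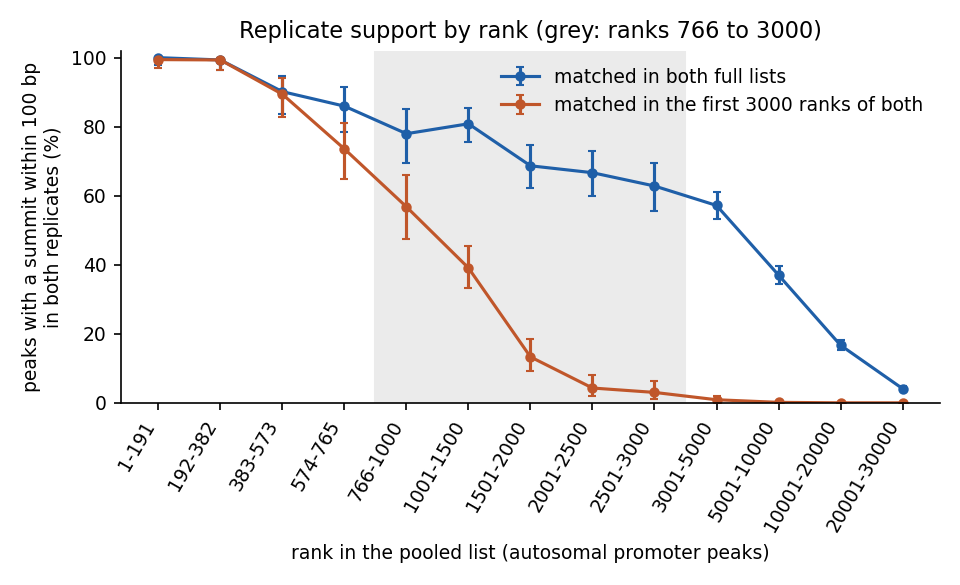
Share of autosomal promoter peaks (vertical axis, %) with a summit within 100 bp in both replicates, by rank in the pooled list (horizontal axis); blue uses the full replicate lists, orange their first 3000 ranks, bars are exact 95% intervals over peaks, and grey shading marks the ranks from the cutoff to 3000. The blue share falls from 78.0% to 62.8% over the shaded ranks and the orange share from 56.8% to 3.02%.

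Signals and ranks in a replicate cover only the members matched there. The median signal was 21.78 for 820 members in replicate 1 (10.58 to 51.29) and 29.17 for 910 in replicate 2 (12.7 to 57.18). Their ranks ran from 348 to 23025 in replicate 1, with a median of 2291.5, and from 410 to 29810 in replicate 2, with a median of 2307. Of the 728 members matched in both, 362 ranked better in replicate 1 and 366 in replicate 2. Over all members, 474 were matched within the first 3000 ranks of replicate 1 and 563 within those of replicate 2. A rank that the cutoff would keep was reached by 75 members in replicate 1, by 69 in replicate 2 and by 4 in both. The authors' scaling of signal is not stated, so ranks and not signals were compared between lists.

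**Figure D4:**
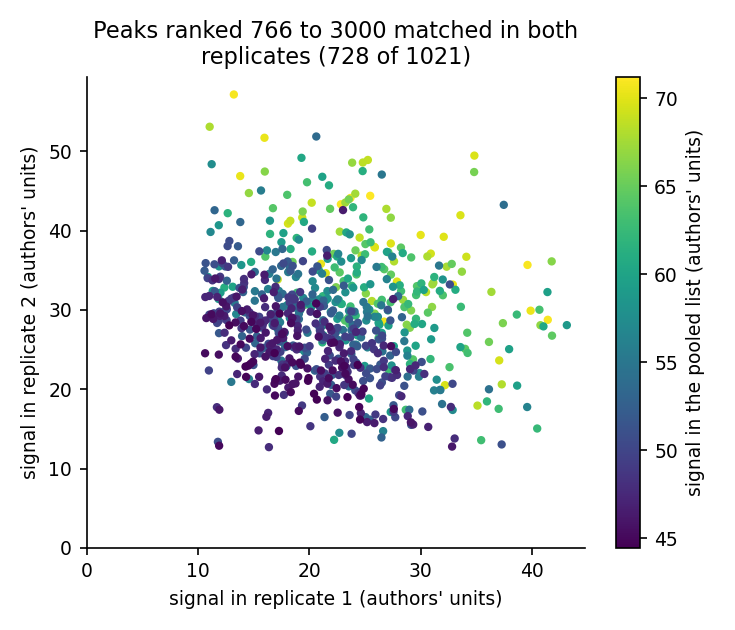
Signal of each member in replicate 1 (horizontal axis) and replicate 2 (vertical axis), in the authors' units, for the 728 of 1021 members matched in both; each point is a peak and colour gives its signal in the pooled list. Members of high pooled signal (light colours) include mmad-1 at 13.21 and 57.18 and cls-3 at 41.39 and 28.76. Members were selected on the pooled signal, and no relation between the axes was tested.

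The pooled signal of members ran from 44.45 to 71.21, with a median of 51.56, against a median of 118.7 for the stronger peaks. At the upper edge the pooled list fell without a step, from 71.40 at the last rank kept to 71.38 at the next. The nearest promoter peaks on either side were hlh-11, a helix-loop-helix factor gene, at 71.40 and chd-7, a chromatin remodeller gene, at 71.21. At the lower edge mboa-6 at rank 2999 had 44.45 and fbxa-63 at rank 3003 had 44.44. The authors' q was at most 0.05 for 37 members, at most 0.1 for 168 and at most 0.5 for 827, with a median of 0.327. No filter on low values was applied. All 1021 members entered each summary, except that replicate signals, ranks and summit distances leave out members without a match there.

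Among the 20 strongest members, 16 were matched in both replicates, and several of those were carried by 1 of them. The strongest, at chd-7 (I:4698841-4699270), had a signal of 25.45 in replicate 1 (rank 1364) and 44.4 in replicate 2 (rank 657). The peak at taf-4, a gene for a TFIID subunit, had 39.57 (rank 512) and 35.68 (rank 1153) and also lay at the start of pqn-59. The largest imbalance was at mmad-1, a gene of cobalamin metabolism (III:13549190-13549619), with 13.21 in replicate 1 (rank 13035) and 57.18 in replicate 2 (rank 410). The peaks of cyl-1, a cyclin L gene, at ranks 11466 and 591, and of F17C11.4, at ranks 7106 and 480, were also high in replicate 2 only. The peak at rbr-2, a histone H3 lysine demethylase gene (IV:10919171-10919600), ranked higher in replicate 1. It had 39.85 there (rank 506) and 29.91 in replicate 2 (rank 2100).

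The other 4 of the 20 lacked a partner in 1 replicate. The peaks of aip-1 and ZK484.6 had none in replicate 2, and those of pptr-2, which encodes a regulatory subunit of the phosphatase PP2A, and of the kinetochore gene knl-1 had none in replicate 1. The summit at pptr-2 lay 200 bp from that of a stronger peak. Of the remaining peaks, those of F40F8.11, Y17G7B.18, gldi-2, pelo-1 (ribosome rescue), sur-6 (another PP2A subunit), mrps-16, mrps-31, F08G2.4 and H14E04.2 were matched in both, with signals from 21.03 to 32.87 in replicate 1 and from 28.53 to 44.13 in replicate 2.

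The members best placed in both replicates were not all independent sites. At psf-2, which encodes a GINS subunit of the replication fork (I:15052631-15053060), the signal was 34.8 in replicate 1 (rank 621) and 49.47 in replicate 2 (rank 527). W03F9.1 had 33.55 (rank 664) and 41.95 (rank 748), and mrps-31, a mitochondrial ribosomal protein gene, had 29.98 (rank 859) and 39.46 (rank 864). These 3 were over 10000 bp from any summit above the cutoff. T26A8.4 (34.78 at rank 623 and 47.4 at rank 578) and Y92H12BR.2 (37.44 at rank 559 and 43.26 at rank 693) lay 208 and 207 bp from one. In all, 60 members (5.88%) lay within 500 bp of a summit above the cutoff and 38 at 200 to 215 bp from one, and every member peak is 430 bp wide.

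The members lay at the starts of 1270 of 17242 autosomal protein-coding genes (7.37%), and the stronger peaks at 856 (4.96%). Both kinds were found at 99 genes, which is 7.8% of the first set and 11.6% of the second. Of the 1270 genes, 74 had at least 2 members and cfim-2, sac-2 and mif-4 had 3. A gene counted here has a summit in the window of a start, and its expression was not measured.

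Splicing factor, nuclear pore, proteasome and mitochondrial ribosomal protein genes held members at over 4 times the share of all genes, and more members than stronger peaks. These counts are given beside the share of all autosomal genes and have no test. Over all autosomal genes, too, more had a member than a stronger peak (7.37% against 4.96%). Among splicing factors 20 of 50 had a member (40%) and 18% a stronger peak, and lsm-5 (rank 822), which encodes an Sm-like protein, and gut-2 (rank 1018) led. For nuclear pore and transport genes the counts were 14 of 40 (35%, against 17.5%), led by npp-18 (rank 894), a nucleoporin gene, and ima-2 (rank 980), an importin alpha gene. Proteasome subunits had 11 of 33 (33.3%, against 18.2%), led by the core particle genes pbs-2 (rank 1058) and pas-6 (rank 1101). Mitochondrial ribosomal proteins had 22 of 70 (31.4%, against 10%), led by mrps-16 (rank 797) and mrps-31 (rank 798). The exact 95% interval of the last was 20.9 to 43.6% for members and 4.12 to 19.5% for stronger peaks. The start nearest the summit was that of a list gene at 17 of 19 splicing factor peaks, 10 of 15 nuclear pore peaks, 7 of 11 proteasome peaks and 16 of 23 mitochondrial ribosomal peaks.

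Replicate values at these genes were uneven. At npp-18 the signal was 33.68 in replicate 1 (rank 658) and 34.83 in replicate 2 (rank 1236), and at ima-2 it was 26.71 (rank 1178) and 35.14 (rank 1207). Both were thus present at similar ranks. At pbs-2 it was 40.44 (rank 490) and 15.05 (rank 20777), so replicate 1 carried it. That peak also lay at the start of the translation factor gene eif-6. No partner was found in replicate 1 for pas-6 and gut-2, or in replicate 2 for lsm-5.

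**Figure D5:**
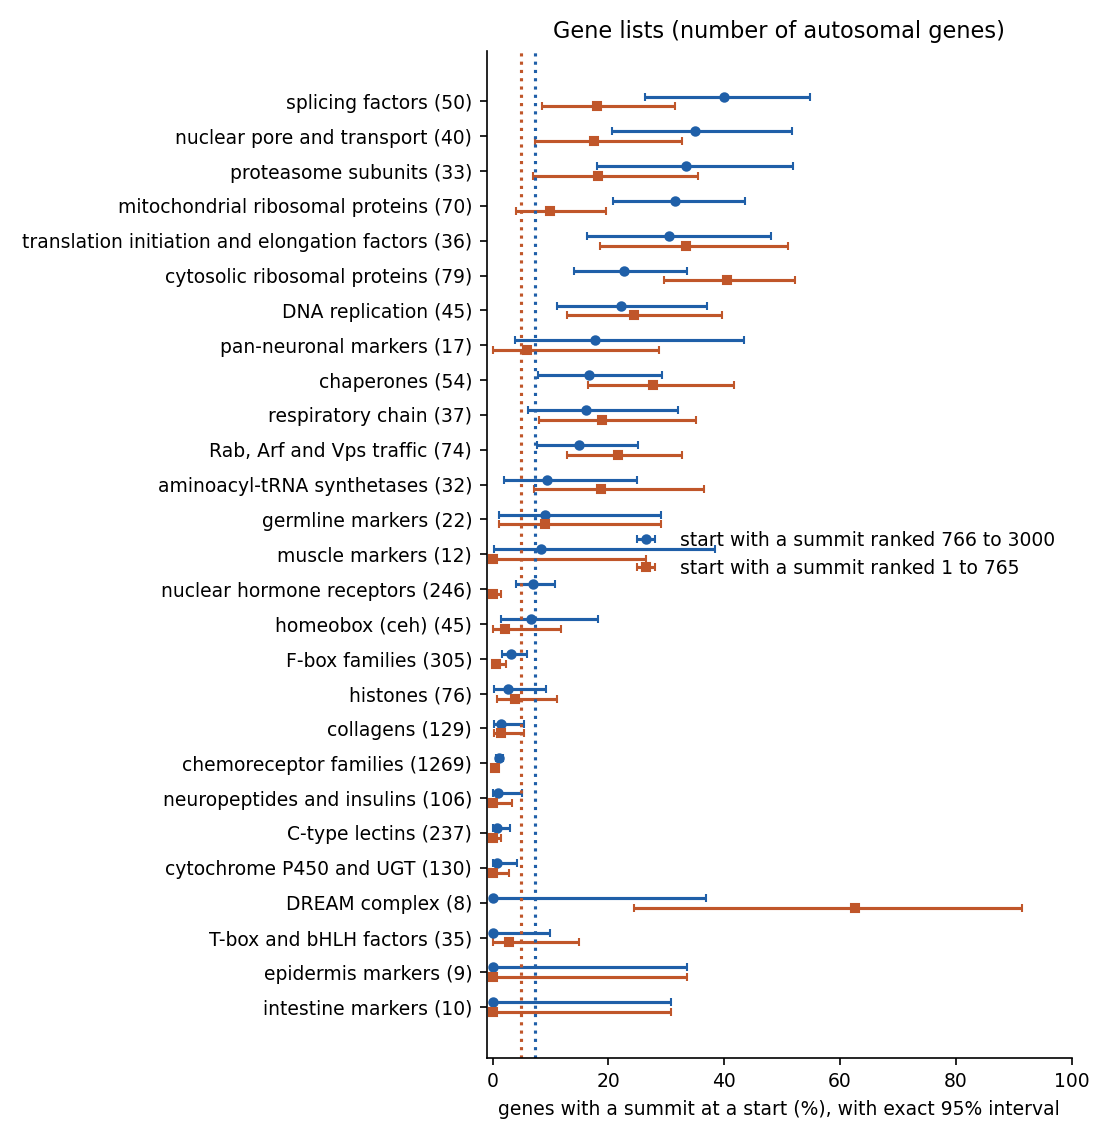
Share of the autosomal genes of each list (horizontal axis, %) with a start in reach of a member (blue) or of a stronger peak (orange); bars are exact 95% intervals over genes, dotted lines the shares of all autosomal protein-coding genes (7.37% and 4.96%), and the number of genes is in parentheses. Splicing factors are highest for members at 40%, and the DREAM complex is at 0 of 8 with an interval up to 36.9%.

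Other housekeeping lists were above the share of all genes in both peak sets, the aminoacyl-tRNA synthetases only slightly so for members. Translation factors had 11 of 36 (30.6%, against 33.3% with a stronger peak), led by eef-1B.1 (rank 1050) and eif-6. Cytosolic ribosomal proteins had 18 of 79 (22.8%, against 40.5%), led by rpl-21 (rank 862), without a partner in replicate 2, and rps-21 (rank 890). DNA replication genes had 10 of 45 (22.2%, against 24.4%), led by psf-2 and by cdc-6 (rank 1102), which licenses origins. Chaperones had 9 of 54 (16.7%, against 27.8%), led by the DnaJ family genes dnj-11 (rank 813) and dnj-22 (rank 1067). Only 3 of the 10 peaks behind the chaperone count lay nearest to a chaperone gene: the peak of dnj-11 was nearer to F38A5.2, and that of dnj-22 to natc-1. The respiratory chain had 6 of 37 (16.2%, interval 6.19 to 32.0%, against 18.9%), led by cox-6A (rank 854) and asg-1 (rank 1163). The peak of cox-6A was at rank 20882 in replicate 1 and 462 in replicate 2. That of asg-1 had no partner in replicate 1. Vesicle traffic had 11 of 74 (14.9%, against 21.6%), led by sec-24.1 (rank 863), of the COPII coat, and snx-3 (rank 990), a sorting nexin gene. Aminoacyl-tRNA synthetases had 3 of 32 (9.38%), led by cars-1 (rank 2417) and iars-1 (rank 2616). Other starts were also nearer at the peaks of rpl-21 (C14B9.10), cdc-6 (acin-1), asg-1 (mrps-15), snx-3 (rad-54.L) and eif-6 (pbs-2). Lists share genes, and 1 peak can lie at genes of 2 lists, so these counts are not independent.

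Regulators, histones and families with restricted expression were mostly near or under the share of all genes. Nuclear hormone receptors, transcription factors of which this worm has very many, had a member at 17 of 246 (6.91%, exact 95% interval 4.08 to 10.8%), close to 7.37%, and a stronger peak at 0 (up to 1.49%). They were led by nhr-142 (rank 815) and nhr-50 (rank 1022). At nhr-142 the signal was 37.03 in replicate 1 (rank 571) and 23.64 in replicate 2 (rank 5113), and the summit was 534 bp from its start and nearer to that of F44E7.9. Members were at 3 of 45 ceh homeobox genes (6.67%), led by ceh-23 (rank 2164) and ceh-92 (rank 2197). F-box genes had 10 of 305 (3.28%, led by fbxa-37 and fbxb-88), histones 2 of 76 (2.63%, his-72 and hil-7), collagens 2 of 129 (1.55%, col-63 and col-8) and chemoreceptors 14 of 1269 (1.10%, led by srr-10 and srx-43). Neuropeptides and insulins had 1 of 106 (nlp-4), C-type lectins 2 of 237 (clec-53 and clec-196), and cytochrome P450 and UGT genes 1 of 130 (cyp-33C4). The start of another gene was nearer at the peaks of ceh-92, fbxb-88, col-8, srr-10 and clec-53.

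Tissue markers were few, and their intervals are wide. Pan-neuronal markers had 3 of 17 (17.6%, 3.80 to 43.4%), which were snb-1, encoding synaptobrevin (rank 1038), unc-33 (rank 1996) and unc-119 (rank 2501). The last is the gene mutated in the strain, and its peak had a signal of 42.41 in replicate 2 (rank 731) and no partner in replicate 1. Germline markers had 2 of 22, at spn-4, whose peak was nearer to spe-39, and at the P granule gene pgl-3, and muscle markers 1 of 12, at unc-89. Intestine markers had 0 of 10, epidermis markers 0 of 9, and T-box and bHLH factors 0 of 35, which allow shares of up to 30.8%, 33.6% and 10.0%. The DREAM complex, a repressor of cell cycle genes, had a member at 0 of 8, which allows a share of up to 36.9%, and a stronger peak at 5 of 8.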

How the data were processed

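The deposited files were peak lists in ce11: 1 for each replicate, 1 for both replicates pooled, and the optimal list after IDR. Per the file headers and labels, each list came from alignments of the sample or samples and 1 control. Names and versions of aligner and caller, like the IDR threshold, were not given in the sources used here. Signal per peak, as the authors deposited it, has no stated scaling and served to rank and describe peaks. The authors' q-value, deposited as −log10, was converted to q for description. The optimal list held the 765 strongest pooled peaks, so members start at rank 766, and the stronger peaks are ranks 1 to 765. The summit offset, deposited by the authors as a position in each peak, gave summits. Lists in ce10 were not used. Peak lists give no depth, so intervals (exact binomial, Clopper-Pearson, 95%) and p-values count peaks or genes and hold counting error alone.

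Summits were placed on protein-coding transcript starts of Ensembl release 115 (WBcel235) with Python 3.11.15, numpy 2.4.6, pandas 2.3.3 and scipy 1.17.1, and plotted with matplotlib 3.10.9. Coordinates are 1-based. Summits within 100 bp were matched. Sequence was read in windows of 101 bp. Some peaks overlap and neighbouring genes share peaks, so p-values over peaks are smaller than independent sites would give. All tests were two-sided and exact. Benjamini-Hochberg adjustment ran over 2080 6-mers, or over 8 share comparisons, with a threshold of 0.05. The 6-mer tests were tested on simulated data.

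The members and the 27 gene lists were chosen with earlier results of these data known. Named genes were the nearest start at the 20 strongest members, the 2 genes of each list with the strongest member, the 5 members whose worse replicate rank was best, the members at the edges of the rank range, and the genes of the printed sequences. For 6-mers, the 5 of lowest p in each direction were named. The genes with 3 members, the third pan-neuronal gene, the 2 types of 6-mers, the joined words and the choice of printed sequences with at least 2 matches were picked after values were seen. Alternatives were other windows, ranks, matching distances, flanks and backgrounds, members away from stronger peaks, overlapping summits counted as 1, and ranks from 1 replicate alone.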

Additional observations from a re-analysis of the deposited data

How the results depend on the processing

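Of 133 values recomputed under the alternatives, 3 lost their call, 22 counts or shares moved 4 turned direction, and the rest kept their direction and their side of the threshold. With members down to rank 1500 only, 379 members were left at 505 genes, 79.95% were matched in both replicates, and with the fewer peaks 0 6-mers were more frequent than in flanks, 0 of the 10 leading ones passed, and 21 were more and 62 less frequent than at stronger summits. Ranks taken from 1 replicate alone gave 0 to 20 6-mers more frequent than in flanks, 0 to 1 leading 6-mers, 48 to 91 more and 110 to 141 less frequent than at stronger summits, GC above flanks in 50.2 to 55.05% of unequal pairs, and odds ratios of 0.762 to 0.791 for II and 0.901 to 1.034 for III, which turned below 1 without replicate 2. The odds ratio of IV turned to 0.865 with members down to rank 1500 and to 0.916 with windows of 500 bp. Those windows also gave 1 6-mer less frequent than in flanks and 53 more frequent than at stronger summits. Support in both replicates was 43.78% within 50 bp, 89.13% within 200 bp and 21.06% with the first 3000 ranks. Flanks 400 to 450 bp away gave 40 6-mers more and 3 less frequent, and GC above flanks in 47.8% of unequal pairs. Summits ranked above 3000 as background gave 122 more and 18 less frequent. Flanks with as many 6-mer positions as the summit window, an alternative chosen after seeing the data, gave 2 less frequent. Why these values moved was not tested. No paired analysis was possible because the series has 1 group.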
